A study of Mus musculus with 4 samples.

Results

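The replication-dependent histone genes were examined in DP (double positive) thymocytes, the T cell precursors that carry both CD4 and CD8, with and without the transcriptional regulator Tox4. They were taken as every gene of the count table whose name begins with Hist1h, Hist2h, Hist3h or Hist4h, which gave 69 of 24984 genes. By histone type, these were 6 genes of H1, 19 of H2A, 19 of H2B, 12 of H3 and 13 of H4. The measurement was TTchem-seq, in which RNA made during a pulse of 4-thiouridine (4sU) is enriched and sequenced, so that the signal over a gene follows its transcriptional output. There were 2 libraries of wild-type mice (WT, genotype Tox4;F/F, that is, floxed without Cre) and 2 of conditional knockout mice (cKO, genotype Tox4;F/F;Lck+). Mice of both genotypes carried loxP sites around exons 4 to 6 of Tox4 on a C57BL/6 background, and per the methods they were littermates of 6 to 8 weeks. Cre was driven by the proximal promoter of Lck, which is active in T cell precursors before the DP stage. The cells of both genotypes were moved to fresh medium for 0.5 h before 4sU was given.

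Replication-dependent histones package the new DNA of S phase. The core histones H2A, H2B, H3 and H4 build the nucleosome, and the linker histone H1 binds the DNA between nucleosomes. Their genes lie in clusters and have no introns, and most of their mRNAs end in a conserved stem-loop in place of a poly(A) tail. The stem-loop is bound by Slbp, and Npat switches the genes on when cells enter S phase. Among DP thymocytes the early blast cells divide, whereas the later cells that rearrange the T cell receptor alpha gene do not.

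The stem-loop is what these genes share at their 3′ end, so its sequences are shown first. All 69 genes matched a RefSeq gene of GRCm38.p6, Hist1h2ao and Hist1h2ap the same gene, and 67 of them had a coding sequence. The search covered the 150 bases after the stop codon, for 16 bases that start with GG, end with CC and form 6 pairs around a loop of 4. It found a stem-loop in 65 of the 67 genes, at a median of 30 bases and a range of 21 to 58 bases after the stop codon. There were 8 distinct sequences. The most common stood in 41 genes, the next in 9, and the one after, with another pair in the stem, in 8. Capitals mark the loop.
commonest stem-loop: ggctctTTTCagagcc
second stem-loop: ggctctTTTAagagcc
next stem-loop: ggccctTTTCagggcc
The 2 coding genes without such a match were Hist1h2an and Hist2h2be. Hist1h2an held 15 of the 16 bases of the commonest sequence, 32 bases after its stop codon at chr13:21786778-21786793 on the minus strand. The difference was C16T, counted from 1 at the 5′ end of the stem-loop with the commonest sequence first. In Hist2h2be the closest match held 9 of 16 bases. In the line for Hist1h2an the capital marks the differing base.
Hist1h2an: ggctcttttcagagcT

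The proteins encoded by these genes were few. The 13 H4 genes had coding sequences for a single protein, whereas the 12 H3 genes coded for 2 proteins, H3.2 from 8 genes and H3.1 from 4 genes. The H2A genes coded for 9 proteins, the H2B genes for 11 and the H1 genes for 6. Coding sequences of the same length within a type were alike in a median of 96.4% of bases for H2A, 97.2% for H2B, 97.2% for H3 and 93.9% for H4. Such copies share fragments, and 51 of the 69 genes had fractional counts in at least 1 library, so the level of a single gene depends on how shared fragments were split. The sum over a type depends less on it where the sharing copies are of that type, and whether fragments were also shared across types was not tested.

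The types differed in what stood before their genes. RefSeq promoter windows, from 250 bases before to 50 bases after the start, were at hand for 62 of the genes and were searched on both strands for the letters of known promoter elements. Hist1h2ao and Hist1h2ap were given the same window, which counts for both. CCAAT stood in every window of the 6 H1, 18 H2A, 16 H2B and 10 H3 genes but in 3 of 12 windows of H4 genes, against 37.9% of the windows of all 27025 genes. The TATA sequence TATAAA stood in 56.5% of the histone windows and in 14.2% of all windows. The octamer ATTTGCAT, known as a binding site of Oct proteins, stood in 7 H2A and 6 H2B windows and in no window of the other types, against 1.75% of all windows. AAACACA, known as an element of H1 promoters, stood in 5 of 6 H1 windows and in 7.14% of all windows. An E2F site, searched as TTTCCCGC, TTTGGCGC or TTTCGCGC, stood in 16.1% of the histone windows and in 1.91% of all windows. A match is a description of the letters and not of binding.

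H2A and H2B genes often lie head to head with a shared promoter. By the matched RefSeq genes there were 12 such pairs of starts within 500 bases, each of an H2A and an H2B gene. The starts lay 164 to 281 bases apart. The rows of Hist1h2ao and Hist1h2ap cover places on both strands but matched the same RefSeq gene, so they were counted once. A pair at their other place was not searched for. Without any test of levels against sequence, promoters of genes named in the results below are shown. These are the bases between the starts of Hist1h2an and Hist1h2bp (chr13:21787249-21787482, plus strand) and of Hist1h2ak and Hist1h2bn (chr13:21753913-21754075, plus strand), then the 250 bases before the H1 gene Hist1h1d (chr13:23554782-23555031, plus strand) and before the H4 gene Hist1h4k (chr13:21750554-21750803, minus strand). Capitals mark any of the elements above on either strand, in the build GRCm38.p6.
Hist1h2an to Hist1h2bp: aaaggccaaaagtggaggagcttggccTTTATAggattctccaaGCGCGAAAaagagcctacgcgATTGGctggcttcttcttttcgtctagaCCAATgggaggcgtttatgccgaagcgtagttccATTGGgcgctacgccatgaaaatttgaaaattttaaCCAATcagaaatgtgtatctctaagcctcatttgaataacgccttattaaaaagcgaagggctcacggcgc
Hist1h2ak to Hist1h2bn: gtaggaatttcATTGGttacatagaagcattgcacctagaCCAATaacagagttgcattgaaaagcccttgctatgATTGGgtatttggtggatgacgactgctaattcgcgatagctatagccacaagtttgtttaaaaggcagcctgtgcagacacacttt
Hist1h1d: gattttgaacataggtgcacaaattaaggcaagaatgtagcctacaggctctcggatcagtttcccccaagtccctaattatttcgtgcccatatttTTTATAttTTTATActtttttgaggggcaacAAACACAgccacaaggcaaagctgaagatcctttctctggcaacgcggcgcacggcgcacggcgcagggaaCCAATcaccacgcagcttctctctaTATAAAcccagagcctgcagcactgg
Hist1h4k: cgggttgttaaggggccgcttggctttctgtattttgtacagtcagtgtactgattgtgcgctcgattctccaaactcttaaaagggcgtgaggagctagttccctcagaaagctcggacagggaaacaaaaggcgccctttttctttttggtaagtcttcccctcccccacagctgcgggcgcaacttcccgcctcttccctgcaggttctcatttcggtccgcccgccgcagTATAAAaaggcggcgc

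The libraries held 38429786 to 48690591 fragments, and levels are given in CPM, the fragments of a gene scaled to the same total in every library. Tox4 stood at 74.0 and 70.3 CPM in WT and at 59.3 and 57.2 CPM in cKO. The log2 fold change of Tox4 was -0.31 ± 0.10 (SE), with an adjusted p of 0.045 in DESeq2's Wald test. This call was lost by edgeR, with an adjusted p of 0.15, and after any 1 library was left out, where the log2 fold change lay between -0.34 and -0.28. The counted interval of a gene holds more than the deleted exons, so the remaining signal does not measure the deletion. Xist, an RNA of female cells, stood at 172 CPM in WT replicate 1, whereas no other library exceeded 2.36 CPM, so WT replicate 1 stands apart in this. The methods of the study name mice matched by gender. Sex and other differences between WT replicate 1 and the other libraries cannot be told apart here. All 12 DP markers were found, with Cd4 at 621 to 715 CPM, whereas the 8 erythroid markers summed to at most 0.855 CPM and the 5 thymic epithelial markers to at most 1.13 CPM. The 7 B cell markers summed to 18.2 to 25.9 CPM and the 8 myeloid markers to 9.34 to 12.0 CPM. The 8 mature single positive markers summed to 506 to 578 CPM. The 8 markers of earlier precursors summed to 96.4 and 94.3 CPM in WT and to 126 and 140 CPM in cKO libraries. In that list Notch3, a receptor of early T cell precursors named after its values were seen, was at 22.5 and 25.4 CPM in WT and at 55.1 and 61.8 CPM in cKO libraries, and the other 7 summed to 68.9 to 77.8 CPM. Notch3 was called higher by DESeq2 and by edgeR. DESeq2 also called 3 DP markers lower, 3 mature single positive markers higher and 1 lower, none of which edgeR called. Of all 11625 genes above 1 CPM, DESeq2 called 2.14% higher and 1.57% lower, and edgeR called 48 and 10 genes. Their part in the results below was not tested.

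Histone genes were among the strongest sources of labelled RNA per length. A mean of at least 1 CPM was reached by 65 of the 69 genes. Of these, 62 were in the top 10% of the 11625 genes at that level, ranked by CPM per kb of counted length, and the median histone gene stood at the percentile 99.6. Together the histone genes took 0.334% and 0.615% of the WT fragments and 0.376% and 0.397% of the cKO fragments. The 4 genes under 1 CPM were Hist2h2ab, at 0.453 to 1.03 CPM, and 3 genes known as testis-specific. Of the latter, Hist1h1t, the testis H1, reached at most 0.205 CPM. Hist1h2ba reached 0.0616 CPM in WT replicate 2 and was at 0 in the other libraries, and Hist1h2aa reached 0.0252 CPM in cKO replicate 2 alone.

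Within each type the genes differed in level per length, and the top 3 held 80.0% of the CPM of H1 but 32.6% to 42.0% of that of the core types. Among H1 genes, Hist1h1d stood at 321 CPM per kb as the mean of the 4 libraries, Hist1h1c at 299 and Hist1h1a at 236 CPM per kb. This order held in each of the 4 libraries, as did the order among the 3 H3 genes with the highest means. With rows that share places not joined, the first genes of H2A and H4 led their types in all 4 libraries and that of H2B in 3. The order of the top 3 changed between libraries in these types. The lowest of the 5 H1 genes above 1 CPM, Hist1h1b, stood at 90.5 CPM per kb.

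Among H2A genes Hist3h2a led with 220 CPM per kb, followed by Hist2h2aa1 with 117 and Hist1h2ab with 111 CPM per kb. Hist3h2a lies outside the large cluster, on chromosome 11. The row of Hist2h2aa1 was counted over 2 places that it shares with Hist2h2aa2, and both rows held the same counts in 3 libraries and 4957 and 4959 in cKO replicate 2. The sum of both rows over the length they cover was 219 CPM per kb, close to the value of Hist3h2a.

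Among H2B genes Hist2h2bb led with 211 CPM per kb, followed by Hist1h2bn with 170 and Hist1h2bg with 164 CPM per kb. The lowest values, 0.955 CPM per kb for Hist2h2be and 0.97 CPM per kb for Hist1h2be, came from rows of 2667 and 37455 bp, which reach far beyond the short transcript of a replication-dependent histone. Values per kb of the 12 rows over 1000 bp therefore understate the level of the histone transcript.

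Among H3 genes Hist2h3b stood at 291, Hist1h3g at 247 and Hist1h3f at 168 CPM per kb. Hist2h3c1 and Hist2h3c2 share their places like the Hist2h2aa rows, and together they stood at 324 CPM per kb. The 8 H3.2 genes summed to 757 and 1402 CPM in WT and to 753 and 864 CPM in cKO libraries. The 4 H3.1 genes summed to 195 and 386 CPM in WT and to 203 and 295 CPM in cKO libraries, so H3.2 genes gave more fragments than H3.1 genes in every library.

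Among H4 genes Hist1h4d stood at 388, Hist2h4 at 244 and Hist1h4k at 229 CPM per kb. All 13 H4 genes were above 1 CPM, and the lowest was Hist1h4i with 27.9 CPM per kb. The genes of a head-to-head pair could differ widely per length. Hist1h2bg stood at 164 CPM per kb and its partner Hist1h2ae at 13.3 CPM per kb, although 180 bases separate their starts. Hist1h2bl stood at 115 CPM per kb and its partner Hist1h2ai at 15.6 CPM per kb.

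**Figure D1:**
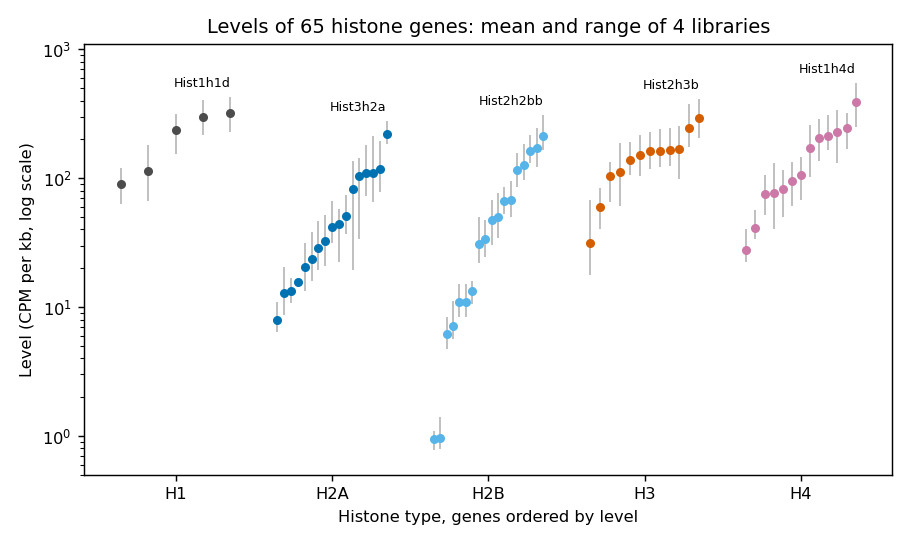
Level of the 65 histone genes above 1 CPM, in CPM per kb on a log axis. Points are means of the 4 libraries, lines run from the lowest to the highest library, and the top gene of each type is named. Hist1h4d, at 388 CPM per kb, was the highest.

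Before the genotypes were compared, the libraries within each genotype were compared, and they differed widely. WT replicate 2 held 1.84 times the histone CPM of WT replicate 1. It was above WT replicate 1 for 64 of the 65 genes and was the highest of the 4 libraries for 60. The exception was Hist2h2be, at 2.42 and 2.07 CPM in the WT libraries. The median log2 ratio of WT replicate 2 to WT replicate 1 was 0.85 over the histone genes and 0.00 over all genes above 1 CPM. H2A genes had the highest median of the types, 1.25, and H4 genes the lowest, 0.66.

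The cKO libraries had nearly equal histone sums, at 3761 and 3975 CPM, but not the same composition. All 5 H1 genes were higher in cKO replicate 1, with a median log2 ratio of cKO replicate 2 to cKO replicate 1 of -0.71. By contrast, 12 of 13 H4 genes were higher in cKO replicate 2, with a median of 0.68, and so were 9 of 12 H3 genes, with a median of 0.42. H2A and H2B genes stood between them, with medians of 0.05 and 0.04. Over all genes above 1 CPM the median was -0.01.

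The ratio of summed H1 to summed H4 was therefore 0.792 and 0.954 in WT, 1.82 in cKO replicate 1 and 0.709 in cKO replicate 2. H1 took 25.5% of the histone fragments in cKO replicate 1 and 14.5% to 17.8% in the other libraries. H4 took 14.0% in cKO replicate 1 and 18.6% to 21.8% in the others. Nucleosomes hold equal numbers of each core histone. The ratio of summed H2A to H2B was 0.789 to 0.981 over the 4 libraries, and that of H3 to H4 was 1.31 and 1.56 in WT and 1.82 and 1.42 in cKO.

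Row length moved with this pattern. Over the 51 genes with at least 1 CPM, at most 1000 bp and a single counted place, Spearman's rho between length and the log2 ratio of cKO replicate 2 to cKO replicate 1 was -0.62, and without the H1 genes it was -0.50 over 46 genes. For the ratio of WT replicate 2 to WT replicate 1 it had the other sign over the same genes, 0.37 and 0.38. Against the share of G and C bases, rho was 0.20 for the cKO ratio and 0.40 for the WT ratio. Without the H1 genes it was 0.084 and 0.44. These genes share the same libraries and, in part, the same fragments. The 16 genes of 358 to 448 bp, of which 10 were H4 genes, had a median of 0.43. The 29 genes of 450 to 558 bp had a median of 0.08, and the 6 genes of 725 to 903 bp, which were the H1 genes and Hist1h3f, had a median of -0.70. Hist1h3f, an H3.2 gene of 903 bp, was at 140 and 89.7 CPM in cKO. Over all 186 other genes of at most 1000 bp above 1 CPM, that ratio had a median of -0.085. Among the 10 of them with 150 to 600 bp the median was 0.25. The gene among them with the highest CPM, Rpph1, the RNA of ribonuclease P, was at 267 and 510 CPM in cKO and at 614 and 615 CPM in WT libraries. Rmrp, the RNA of ribonuclease MRP, was at 5.65 and 11.0 CPM in cKO and at 17.5 and 15.8 CPM in WT libraries. Rpph1 and Rmrp were picked after their values were seen. The part of length or of G and C bases in the pattern was not tested.

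**Figure D2:**
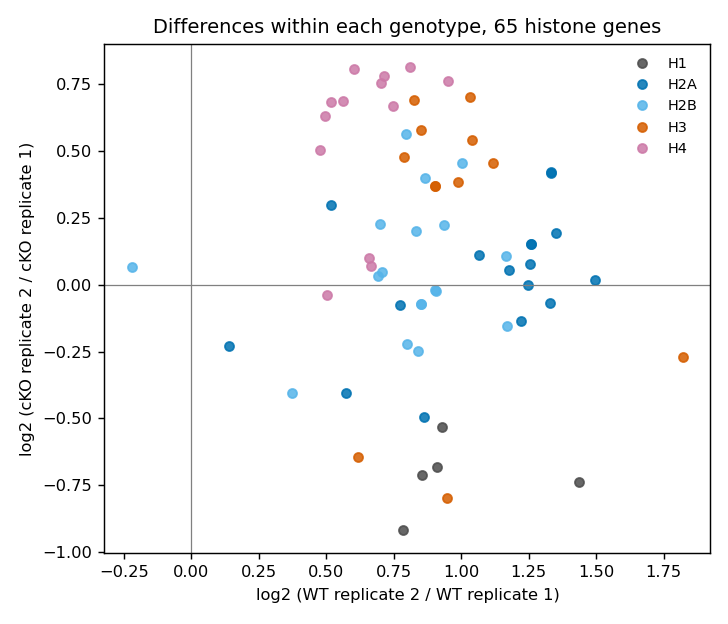
Each point is a histone gene, with the log2 ratio of the WT libraries on the horizontal axis and that of the cKO libraries on the vertical axis. Nearly all points lie to the right of 0 (64 of 65). The H1 genes lie below 0 on the vertical axis, and 12 of 13 H4 genes lie above it.

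The question for the comparison of genotypes was whether loss of Tox4 changed the output of these genes. Summed over all 69 genes, the level was 4746 ± 1986 CPM in WT and 3868 ± 151 CPM in cKO libraries (mean ± SD, n = 2 each). The log2 ratio of cKO to WT was -0.30, and both cKO values lay between the WT values. Without WT replicate 2 the log2 ratio was 0.21, and without WT replicate 1 it was -0.67, so the direction rests on WT replicate 2. In RNA from a whole population, fewer cells in S phase and less histone RNA per cell cannot be told apart.

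By type, H1 summed to 576 and 1094 CPM in WT and to 959 and 578 CPM in cKO libraries, with a log2 ratio of -0.12. H2A summed to 479 and 1035 CPM in WT and to 624 and 705 CPM in cKO libraries, with a log2 ratio of -0.19. H2B summed to 607 and 1087 CPM in WT and to 696 and 719 CPM in cKO libraries, with a log2 ratio of -0.26. For these types the cKO values lay within the range of the WT values.

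H3 summed to 953 and 1788 CPM in WT and to 956 and 1158 CPM in cKO libraries, with a log2 ratio of -0.37. H4 summed to 727 and 1146 CPM in WT and to 527 and 815 CPM in cKO libraries, with a log2 ratio of -0.48. Only for H4 was a cKO library below both WT libraries, and the groups overlapped for each of the 5 types. Without WT replicate 2, the log2 ratio of H4 was -0.12 while those of H1, H2A, H2B and H3 were 0.42, 0.47, 0.22 and 0.15. The differences between types were not tested.

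**Figure D3:**
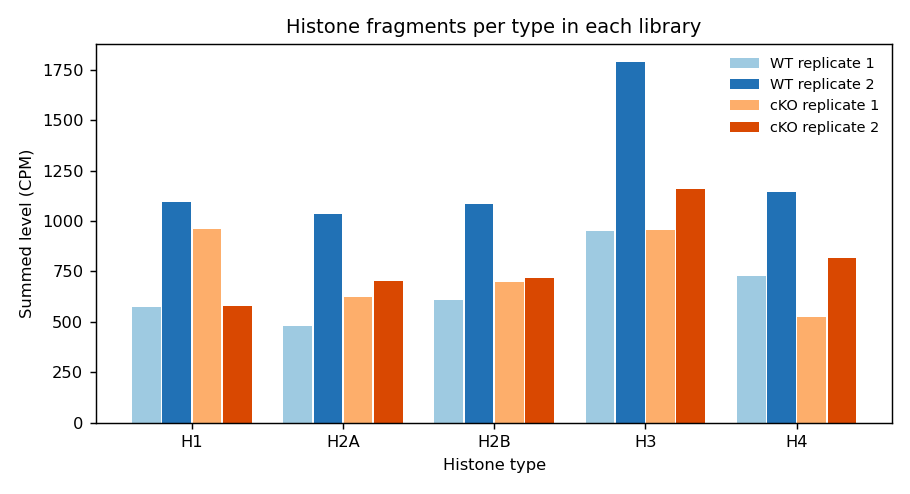
Bars give the summed CPM of all genes of a histone type in each of the 4 libraries. WT replicate 2 is the highest library for every type, and H1 and H4 differ between the cKO libraries in opposite directions.

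In the fit over all genes, 1 of the 69 histone genes was called by DESeq2's Wald test (adjusted p under 0.05, fold change of at least 1.2 and mean CPM of at least 1), and it was higher in cKO. Of the 11625 genes above 1 CPM, 2.14% were called higher and 1.57% lower. The share of histone genes called was thus near or below that of all genes. The log2 fold change was below 0 for 60 of the 65 genes above 1 CPM, with a median of -0.32 against 0.00 over all genes, and the shared high values of WT replicate 2 enter each of these. The standard errors were wide, with a median of 0.50 against 0.15 over all genes. The groups did not overlap for 3 genes with cKO above WT and for 9 genes with cKO below WT, where 24.9% and 24.0% of all genes fell in these classes. None was called lower, while 5 genes had an unadjusted p under 0.05 and a log2 fold change below 0, namely Hist3h2ba, Hist4h4, Hist1h2bp, Hist1h4i and Hist1h2ab. In either direction, 6 of the 65 genes had such a p by DESeq2 and 15 by edgeR, against 13.5% and 15.6% of all genes, and 6.31% of all genes had one by DESeq2 with a value below 0. The histone genes' shares were 9.23% and 23.1%, and edgeR called none.

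The called gene was Hist1h2an, an H2A gene of the Hist1 cluster (chr13:21786772-21787218). It stood at 8.60 and 19.4 CPM in WT and at 58.6 and 60.8 CPM in cKO. The cKO values lay close to each other and above those of WT. The log2 fold change was 2.08 ± 0.56 (SE), with an adjusted p of 0.0088 by DESeq2, and edgeR's quasi-likelihood test gave an adjusted p of 0.057. In leave-one-out fits DESeq2 gave an adjusted p of 0.59 when cKO replicate 1 was dropped and of 0.69 when cKO replicate 2 was dropped, while the log2 fold change stayed between 1.61 and 2.80. This is the gene whose stem-loop differs by C16T from the commonest sequence. Its coding sequence differs from the closest copies, Hist1h2ad and Hist1h2ag, in 4 of 393 bases, and its counts were fractional.

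Hist1h2ak, which lies in the same cluster (chr13:21753377-21753912), had the next highest log2 fold change. It was at 18.0 and 50.8 CPM in WT and at 76.1 and 77.0 CPM in cKO libraries, so the groups did not overlap. Its log2 fold change was 1.15 ± 0.69 (SE), with an adjusted p of 0.49 by DESeq2 and a 95% interval from -0.21 to 2.50. Without WT replicate 1 the value was 0.58 and without WT replicate 2 it was 2.09, and DESeq2 called the gene higher in both of these fits. Next came Hist2h2be, at 2.42 and 2.07 CPM in WT and at 2.78 and 2.92 CPM in cKO libraries, with a log2 fold change of 0.34 ± 0.39 (SE).

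The H2B genes that share a promoter with these H2A genes did not show the same values. Hist1h2bp, the partner of Hist1h2an, was at 10.3 and 19.3 CPM in WT and at 9.97 and 9.84 CPM in cKO libraries. Its log2 fold change was -0.59 ± 0.26 (SE), with an adjusted p of 0.23 by DESeq2, and with 1 library left out it ran from -0.97 (WT replicate 1) to -0.057 (WT replicate 2). Hist1h2bn, the partner of Hist1h2ak, was at 52.9 and 106 CPM in WT and at 56.7 and 77.8 CPM in cKO libraries, with a log2 fold change of -0.24 ± 0.54 (SE). The elements shown above between the starts of these pairs therefore stand before genes whose log2 fold changes had opposite signs with all libraries. Without WT replicate 2, Hist1h2bn was at 0.35, the same sign as Hist1h2ak. The difference within the pairs was not tested.

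**Figure D4:**
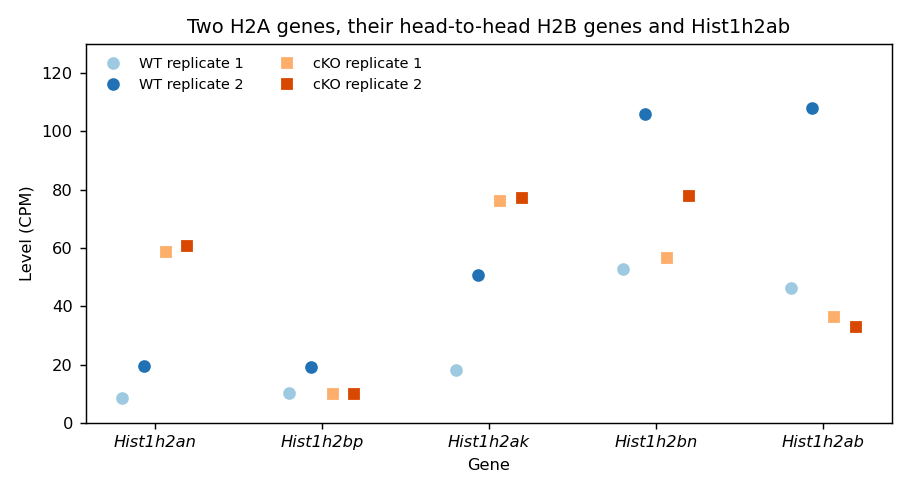
CPM of Hist1h2an and Hist1h2ak, of the H2B genes head to head with them, and of Hist1h2ab, in each library. The cKO libraries lie above the WT libraries for Hist1h2an and Hist1h2ak, and not for their H2B partners.

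At the other end was Hist1h3d, an H3.2 gene, at 9.68 and 34.2 CPM in WT and at 10.7 and 8.89 CPM in cKO libraries. Its log2 fold change was -1.17 ± 0.85 (SE), and WT replicate 1 lay between the cKO libraries. Hist1h2ab, an H2A gene, was at 46.4 and 108 CPM in WT and at 36.2 and 32.9 CPM in cKO libraries, and its log2 fold change was -1.17 ± 0.58 (SE), with an adjusted p of 0.34 by DESeq2. With WT replicate 1 left out, DESeq2 called Hist1h2ab and Hist1h3d lower, at -1.66 and -1.81, and with WT replicate 2 left out they were at -0.42 and 0.021, neither called. Hist1h4j was at 28.6 and 55.4 CPM in WT and at 17.0 and 28.8 CPM in cKO libraries, with a log2 fold change of -0.88 ± 0.60 (SE).

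The sum over H2A hides these opposite values. Without Hist1h2ak and Hist1h2an, a choice made after their values were seen, H2A summed to 452 and 964 CPM in WT and to 489 and 567 CPM in cKO libraries. The log2 ratio of cKO to WT was then -0.42 in place of -0.19. The 9 genes that code for the same H2A protein as Hist1h2an summed to 138 and 300 CPM in WT and to 198 and 191 CPM in cKO libraries, which overlapped.

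**Figure D5:**
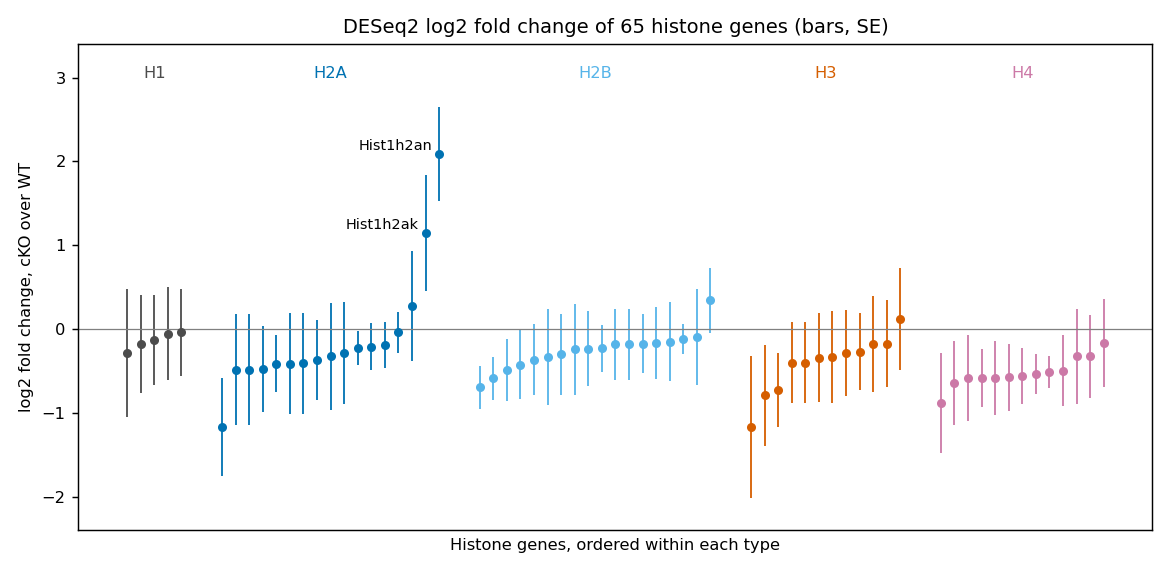
DESeq2 log2 fold change of cKO over WT for the 65 histone genes above 1 CPM, ordered within each type. Points are estimates and bars are the SE, and the highest is Hist1h2an at 2.08.

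Among the strongest H1 genes no difference stood out from the spread. Hist1h1d was at 176 and 330 CPM in WT and at 301 and 188 CPM in cKO libraries, with a log2 fold change of -0.05 and a 95% interval from -1.14 to 1.03. Hist1h1c was at 161 and 291 CPM in WT and at 257 and 157 CPM in cKO libraries. Hist1h1a was at 137 and 235 CPM in WT and at 216 and 115 CPM in cKO libraries. For all 3 genes cKO replicate 1 was close to the higher WT library and cKO replicate 2 close to or below the lower.

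Of the 3 strongest H2A genes, Hist1h2ab had all cKO values below those of WT, as given above. Hist3h2a was at 98.6 and 141 CPM in WT and at 93.2 and 114 CPM in cKO libraries, and Hist2h2aa1 was at 86.3 and 217 CPM in WT and at 93.2 and 125 CPM in cKO libraries. Hist2h2bb was at 86.9 and 151 CPM in WT and at 95.9 and 82.2 CPM in cKO libraries. Hist1h2bg was at 61.2 and 99.8 CPM in WT and at 70.4 and 72.7 CPM in cKO libraries. The groups overlapped for these 4 genes, and their log2 fold changes were between -0.48 and -0.17. Hist2h2bb and Hist1h2bg were called lower by DESeq2 after WT replicate 1 was left out, and were above 0, at 0.039 and 0.23, after WT replicate 2 was.

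Among H3 genes, Hist2h3b was at 104 and 205 CPM in WT and at 119 and 156 CPM in cKO libraries. Hist1h3g was at 85.3 and 185 CPM in WT and at 91.0 and 125 CPM in cKO libraries. Hist1h3f was at 149 and 229 CPM in WT libraries, above both cKO values given before, and its log2 fold change was -0.72 ± 0.44 (SE), with an adjusted p of 0.49 by DESeq2. It was the only H3 gene whose groups did not overlap.

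H4 genes had the lowest median log2 fold change of the types, -0.56. The value was below 0 for all 13, as it was for all 5 H1 genes, and cKO replicate 1 was the lowest library for 12. Without WT replicate 2 the values of Hist1h1d, Hist1h1c and Hist1h1a were 0.48, 0.37 and 0.28, and those of Hist1h4d and Hist2h4 were 0.15 and 0.24. That of Hist1h4k stayed between -1.10 and -0.29 with any 1 library left out. Hist1h4d was at 115 and 202 CPM in WT and at 92.1 and 162 CPM in cKO libraries. Hist2h4 was at 75.2 and 123 CPM in WT and at 65.1 and 112 CPM in cKO libraries. Hist1h4k was at 90.4 and 137 CPM in WT and at 53.2 and 93.1 CPM in cKO libraries. For these 3 genes the groups overlapped, and the 95% interval of Hist1h4d ran from -1.43 to 0.78. All cKO values lay below all WT values for 5 of the 13 genes, against 24.0% of all genes. They included Hist4h4, on chromosome 6, at 17.5 and 24.9 CPM in WT and at 15.2 and 14.8 CPM in cKO libraries, where the log2 fold change was -0.51 ± 0.19 (SE), with an adjusted p of 0.12 by DESeq2. None of the 13 was called in the fit without covariates. An unadjusted p under 0.05 was reached by 2 of them, or 15.4%, with DESeq2 and by 8, or 61.5%, with edgeR, against 13.5% and 15.6% of all genes. With replicate number as a covariate, DESeq2 called 8 of the 13 lower, of 72 such genes in all, and edgeR 0 of 9. Whether those numbers pair the libraries is not known.

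By position, the 55 genes of the Hist1 cluster summed to 2411 and 4369 CPM in WT and to 2826 and 2791 CPM in cKO libraries, with a log2 ratio of -0.27. The 10 genes of the Hist2 cluster on chromosome 3 summed to 797 and 1585 CPM in WT and to 810 and 1038 CPM in cKO libraries, with a log2 ratio of -0.37. The 3 genes of the Hist3 cluster summed to 117 and 172 CPM in WT and to 110 and 131 CPM in cKO libraries. The higher level in WT replicate 2 was thus seen in every cluster.

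Genes that make, process or use histone mRNA were read beside them from lists written with earlier results of these data known. Of 21 genes of the histone gene expression machinery none was called, and 3 had an unadjusted p under 0.05 by DESeq2 as by edgeR, against 13.5% and 15.6% of all genes. Their median log2 fold change was 0.02. Npat, the activator of histone genes in S phase, was at 59.2 and 64.5 CPM in WT and at 79.0 and 68.9 CPM in cKO libraries, and its log2 fold change was 0.25 ± 0.11 (SE), with an adjusted p of 0.21 by DESeq2. Slbp, which binds the stem-loop, was at 28.0 and 31.8 CPM in WT and at 33.8 and 33.8 CPM in cKO libraries. Casp8ap2, a partner of Npat, had a log2 fold change of 0.01, and Lsm10 and Lsm11, subunits of the U7 particle that cuts the 3′ end, had -0.18 and -0.11. The list's summed CPM was 1.02 times as high in WT replicate 2 as in WT replicate 1, against 1.84 times for the histone genes.

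Genes of DNA replication had other values than the histone genes they are expressed with. Of 41 genes, 5 were called higher by DESeq2 and none lower, against 2.14% and 1.57% of all genes, and 38 had a log2 fold change above 0, with a median of 0.36. The called genes were Pola1, Cdc7, Cdc45, Cdc6 and Rrm1, with log2 fold changes of 0.65, 0.56, 0.56, 0.52 and 0.47. Pola1, the catalytic subunit of DNA polymerase alpha, was at 60.4 and 76.2 CPM in WT and at 109 and 107 CPM in cKO libraries, with an adjusted p of 3.2e-06 by DESeq2. Pola1 was called with any 1 library left out, Cdc45, Cdc6 and Rrm1 only without WT replicate 2, and Cdc7 in none of these fits. By edgeR none of the 41 was called, and 17 had an unadjusted p under 0.05, against 15.6% of all genes. The summed CPM of the list was 1410 and 1735 in WT and 1942 and 1893 in cKO libraries, so the lowest cKO value exceeded the highest WT value, and WT replicate 2 was 1.23 times WT replicate 1.

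Among replication genes not called, Mcm5, a subunit of the replicative helicase, had a log2 fold change of 0.41 ± 0.14 (SE) and Mcm2 one of 0.21 ± 0.13 (SE). The sliding clamp Pcna had 0.16 ± 0.12 (SE). The S phase cyclins Ccne1 and Ccne2 had 0.50 ± 0.25 (SE) and 0.77 ± 0.25 (SE). Over the 41 genes of the list, both cKO values were the higher ones for 31 and the lower ones for 1. The shares over all genes were 24.9% and 24.0%. Each of these 5 genes was among the 31. Their size rested on single libraries: with 1 library left out the log2 fold change ran from 0.18 to 0.69 for Mcm5, from 0.036 to 0.40 for Mcm2, from 0.015 to 0.33 for Pcna, from 0.10 to 1.05 for Ccne1 and from 0.35 to 1.10 for Ccne2. Without WT replicate 2, Mcm5, Ccne1 and Ccne2 were called by DESeq2, and Ccne2 also without cKO replicate 2.

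Of 23 histone chaperones, 2 were called higher by DESeq2, against 2.14% of all genes. By edgeR none was called, with 4 at an unadjusted p under 0.05, against 15.6% of all genes. Chaf1b, a subunit of the complex that places H3 and H4 on new DNA, was at 15.7 and 19.3 CPM in WT and at 31.0 and 25.8 CPM in cKO libraries, with a log2 fold change of 0.69 ± 0.16 (SE). Mms22l, which acts at stalled replication forks, was at 37.2 and 45.8 CPM in WT and at 61.6 and 61.8 CPM in cKO libraries, with a log2 fold change of 0.57 ± 0.12 (SE). With 1 library left out, both were called only where it was WT replicate 2. The median over the list was 0.03.

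Replacement histones are encoded by genes that are not tied to S phase. Of the 9 above 1 CPM none was called, and none had an unadjusted p under 0.05 by DESeq2 or by edgeR. H3f3a and H3f3b, the genes of H3.3, were at 151 to 156 CPM and at 265 to 319 CPM over the 4 libraries. H2afz, the gene of H2A.Z, was at 23.4 and 33.1 CPM in WT and at 25.1 and 26.4 CPM in cKO libraries. H1f0, the H1 of resting cells, was at 1.10 and 4.56 CPM in WT and at 3.67 and 3.17 CPM in cKO libraries. H2afx, the gene of H2A.X, whose mRNA can end in a stem-loop, was at 23.3 and 49.2 CPM in WT and at 37.5 and 33.9 CPM in cKO libraries. It was named after its values were seen, and its WT libraries differed in the same direction as those of the histone genes.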

How the data were processed

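TTchem-seq libraries of DP thymocytes, 2 WT and 2 cKO, were grouped by their titles. Per the study's methods, labelled RNA was fragmented, biotinylated and depleted of ribosomal RNA, whereas the label of the samples describes capture of poly(A) RNA. Most replication-dependent histone mRNAs carry no poly(A) tail, so this difference bears on their level, and it could not be settled here. The authors filtered reads with fastp and aligned them with STAR 2.7.9a to the mouse build mm10, and the submitters' processing notes also name featureCounts 1.6.1. The deposited table holds expected counts (shared fragments were split into fractions) over intervals from transcript start to end. The methods name strand-specific libraries and the marking of duplicates. How the fractions were assigned, and whether this table was counted by strand or without marked duplicates, was not given in the sources used here. Another deposited column, not a score or a level, gives the counted length in bp.

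CPM were computed from the totals of the table, and CPM per kb from the deposited length. Counts were rounded to whole numbers for the tests. DESeq2 1.42.0 (Wald test, default size factors, unshrunken log2 fold changes, no covariates) was fitted on all genes with Benjamini-Hochberg adjustment. Calls needed a mean CPM of at least 1, an adjusted p under 0.05 and a change of 1.2-fold or more. Alternatives used edgeR 4.0.16 and limma 3.58.1 in R 4.3.3, other scalings, filters and roundings, and each library left out. Tables, sequences and plots were made with Python 3.11.15, pandas 2.3.3, numpy 2.4.6 and matplotlib 3.10.9. The procedures were tested on simulated data. A sum over a type is a score over the members and was given no p-value. The sample labels used here state no pairing of the libraries by replicate number, so none was fitted. The deviations of same-numbered libraries from their group means had a correlation of -0.03 over 11625 genes, which cannot exclude a pairing. Fragments carry no molecular identifiers. The p-values set the difference between genotypes against a spread estimated from these libraries, 2 per genotype, with information shared over all genes.

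Named were Tox4, called histone genes, the 3 genes of each type with the highest mean CPM per kb, the 3 genes with the largest and the 3 with the smallest log2 fold change, the testis-specific genes, called genes of the other lists and a few set genes of each list. The members and lists were chosen with earlier results of these data known.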

Additional observations from a re-analysis of the deposited data

How the results depend on the processing

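Hist1h2an was called higher in every alternative with all 4 libraries except edgeR without a block, where 0 histone genes were called higher. With 1 library left out, the number called higher was between 0 and 3 (0 without either cKO library, 3 without WT replicate 2), and the number called lower was between 0 and 18, with 18 without WT replicate 1 (of 71 among all genes) and 2 without cKO replicate 2 (of 28). The lone library is then assumed to vary like the others. With the replicate block, DESeq2 called 8 genes lower (of 72 among all genes), all of them H4 genes, and edgeR 0 (of 9). Whether replicate numbers pair the libraries is not known, and the cause was not tested. Of the machinery, chaperone, replacement histone and replication genes, 7 were called by DESeq2 and 0 by edgeR. The call of Tox4 was also lost with limma voom, total count factors, the replicate block in either tool and independent filtering off.

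The log2 ratios of type sums moved by less than the spread between libraries under other scalings, roundings and subsets of members, though that of H2A was 0.02 over its members of at most 1000 bp against -0.19. With 1 library left out they ranged from -0.53 to 0.42 for H1, -0.64 to 0.47 for H2A, -0.62 to 0.22 for H2B, -0.76 to 0.15 for H3 and -0.83 to -0.12 for H4, so H4 alone kept its sign. Log2 fold changes of single histone genes that changed sign when a library was left out ranged from -0.45 to 0.48 for Hist1h1d, -0.52 to 0.37 for Hist1h1c, -0.69 to 0.28 for Hist1h1a, -0.45 to 0.078 for Hist3h2a, -1.01 to 0.34 for Hist2h2aa1, -0.78 to 0.039 for Hist2h2bb, -0.67 to 0.35 for Hist1h2bn, -0.49 to 0.23 for Hist1h2bg, -0.59 to 0.41 for Hist2h3b, -0.79 to 0.34 for Hist1h3g, -0.79 to 0.15 for Hist1h4d, -0.62 to 0.24 for Hist2h4 and -1.81 to 0.021 for Hist1h3d. Among other genes the ranges were -0.056 to 0.080 for Casp8ap2, -0.37 to 0.14 for H2afz, -0.016 to 0.024 for H3f3a, -0.43 to 1.64 for H1f0 and -0.48 to 0.62 for H2afx. H2afx was at 0.044 with limma voom, and with the replicate block at 0.069 by DESeq2 and 0.063 by edgeR. H3f3a was at -0.00065 where every library had to reach 1 CPM. The median of the replication genes was 0.16 after WT replicate 1 was left out and 0.59 after WT replicate 2 was.

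Depth limits the 4 genes under 1 CPM. For the others the spread between 2 libraries per genotype limits the precision, and the part of split fragments in it was not tested.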
